A study of Arabidopsis thaliana with 2 samples.

Results

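Beta-glucosidases (BGLU genes) and GH9 endoglucanases (GH9 genes) are plant enzyme families that cut bonds between glucose and another group. Members were taken by name. They are genes whose current symbol or listed synonym in the RefSeq gene table starts with BGLU or GH9. Each also had to have a listed probe set of its own. The rule finds 71 genes in that table, 47 BGLU and 24 GH9. Of these, 37 have a probe set of their own, 22 BGLU and 15 GH9, out of 13356 genes measured in this way. A further 6 genes are read only through 3 probe sets that they share in pairs, and the other 28 are not listed with a probe set in the annotation used here. Those 28 include the myrosinases TGG1 and TGG2, the defence enzyme PEN2 (BGLU26) and the cellulose-synthesis endoglucanase GH9A1, so nothing is said of them below.

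Plant beta-glucosidases of the BGLU family release small molecules that plants store or transport as inactive glucosides. Their known substrates include coumarins, glucosinolates, flavonols, monolignols, which are the building blocks of lignin, and conjugated hormones. GH9 enzymes are endo-1,4-beta-glucanases that cut the glucan chains of the wall inside the chain. They fall into class A, anchored in membranes, class B, secreted, and class C, secreted with an added carbohydrate-binding module at the end.

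Both families were read in whole Arabidopsis thaliana seedlings of 2 genotypes, 1 Affymetrix ATH1 array each. The wild type was the accession Columbia-0. OE-N6 is a transgenic line in the same background that overexpresses AT4G16790, a gene called NHRGP in the labels; the promoter that drives it and the number of seedlings behind each array are not stated in these sources, and OE-N6 is 1 line. All seedlings were 2 weeks old and were raised at 22 °C on diluted Murashige and Skoog medium that held 2% sucrose, under 16 h of light per day. The question is how overexpression of AT4G16790 relates to the level of other transcripts. Since each genotype was hybridised once, there is no spread between replicates, no test could be made, and "higher" and "lower" describe these arrays only. In whole seedlings fewer cells of a type and less RNA per cell cannot be told apart.

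The labelled genotypes were visible in the targeted gene. For AT4G16790 the wild-type array gave 91.1 and the OE-N6 array 5171. Here a signal under 111, the 40th percentile of all values, was raised to that floor before a ratio was taken, so the difference is at least 46.4-fold. For actin, GAPDH and ubiquitin the 3' probe set was divided by the 5' or middle one, a measure of RNA quality, and this quotient was larger in OE-N6 for 9 of 10 pairs, with log2 differences from -0.20 to 0.39; their part in the ratios below was not tested. For scale, where a gene had more than 1 probe set with enough signal, the log2 ratios of its brightest pair lay 0.19 apart in the median of 41 genes and at most 0.73 apart. This holds neither plant-to-plant nor array-to-array spread, so it is no error for the values below. Single reference genes also differed, since PEX4 stood at a log2 ratio of 0.03 and AT4G34270 at 0.53. Whole-seedling RNA should carry both root and shoot transcripts, and of the markers chosen for this check both kinds were present, with EXPA7 and EXPA18 read for root and LHCB4.2, PSAN, RCA, PRK and SBPASE for green shoot.

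Most members of both families had little signal in these seedlings. Of the 22 BGLU genes 12 (54.5%) lay under the floor on both arrays, and of the 15 GH9 genes 9 did. Over all 13356 genes 44.0% did. The signal filter kept genes whose mean of the arrays was at or above 192, the median of all probe sets other than controls, and 9 BGLU and 5 GH9 genes passed it, 40.9% and 33.3% against 43.9% of all genes. The median of the mean signal was 69.5 for BGLU and 45.1 for GH9, both under the floor, and 142 for all genes. The order turned among members that passed the filter, with 530.4 for BGLU and 1147 for GH9, and on the wild-type array alone the medians were 57.9 and 54.7. BGLU signals spread more widely, with mean signals from 3.12 to 16241, while those of GH9 ran from 5.38 to 1392. These are signals of different probe sets and not amounts of transcript, so they give no order of abundance between genes, and genes of a family are not replicates, so the difference between the families in signal was not tested.

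**Figure D1:**
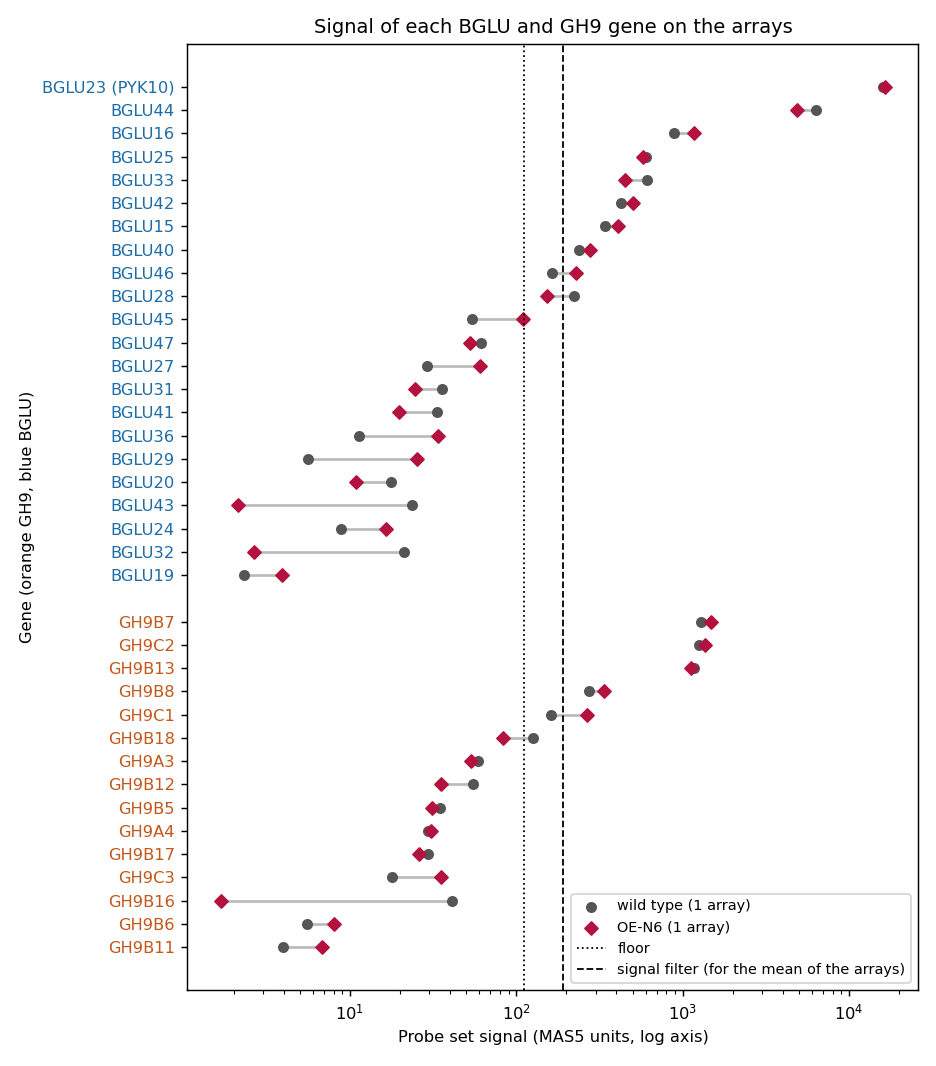
Probe set signal (MAS5 units, log axis) of each of the 37 genes on the wild-type array (grey circles) and the OE-N6 array (red diamonds), 1 array per genotype and so without error bars; the dotted line is the floor of 111 and the dashed line the signal filter of 192. The 10 BGLU and 6 GH9 genes with a point right of the floor have circle and diamond at most 1.66-fold apart, and wider gaps belong to genes on its left.

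Among the beta-glucosidases that act on coumarins or glucosinolates, PYK10, BGLU21 with BGLU22, and BGLU42 had nearly the same signal on both arrays or a slightly higher one in OE-N6. PYK10 (BGLU23, AT3G09260) is the main protein of ER bodies, spindle-shaped compartments inside cells, and acts on the coumarin glucoside scopolin and on indole glucosinolates. It read 15970 on the wild-type array and 16513 on the OE-N6 array, a log2 ratio of 0.05, and it turned to -0.04 under loess scaling. BGLU21 and BGLU22, scopolin-cleaving enzymes of root ER bodies, share a probe set that cannot tell them apart. It read 2777 on the wild-type array and 3277 on the OE-N6 array, 1.18-fold higher. BGLU42 (AT5G36890), a scopolin-cleaving enzyme known from iron deficiency and from resistance induced by root bacteria, read 427 and 501, 1.17-fold higher.

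BGLU28 (AT2G44460), which breaks down glucosinolates when sulphur is scarce, differed in the other direction. It read 223 on the wild-type array and 153 on the OE-N6 array, 1.46-fold lower. This is a log2 ratio of -0.55, the lowest of the members above the floor on both arrays, but with a pseudocount in place of the floor it was -0.34, and BGLU44 (-0.38) and BGLU33 (-0.36) were lower. Its mean signal of 188 lay just under the filter of 192, so it is not in the family counts below.

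The genes that work with these enzymes did not share 1 direction. Of 14 listed ER body and PYK10-complex genes outside the BGLU family, 6 had a listed probe set of their own. The filter was passed by 5, 3 with a log2 ratio above 0 and 2 below, and none at 1.5-fold. Over all genes that passed, 46.8% were above 0 and 53.2% below. At 1.5-fold, 2.44% of them were higher and 2.41% lower, so these counts are not read as a trait of the list. JAL34, a jacalin-related lectin, had a log2 ratio of 0.24 and NAI2, an ER body protein, 0.14. NAI1, the transcription factor needed for ER bodies in seedlings, had signals of 389 and 288, a log2 ratio of -0.43, and the lectin JAL22 had -0.17. Of 13 genes listed for coumarins and monolignols with a matching symbol, 1 was read, F6'H1, which makes the coumarin core, at -0.18. S8H, left out because its symbol did not match the gene table, had signals of 32.4 and 17.4, under the floor on both arrays. Of the glucosinolate synthesis list 2 genes passed, BCAT4 of methionine chain elongation at -0.36 and UGT74B1, which adds the glucose, at -0.22. None of the 13 listed partners of glucosinolate breakdown had a probe set of its own in the annotation used here. Whether the array holds probe sets for them was not determined.

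BGLU15 and BGLU33, of flavonol and hormone glucosides, and BGLU16 had values on both sides of 0. BGLU15 (AT2G44450), which removes glucose from flavonol glycosides, had a wild-type signal of 344 and an OE-N6 signal of 410, 1.19-fold higher. BGLU16 (AT3G60130), for which no substrate is named here, had 891 and 1175, 1.32-fold higher. BGLU33 (AT2G32860), a vacuolar enzyme that frees abscisic acid from its glucose ester, had 609 and 451, 1.35-fold lower. Only BGLU33 of these was lower in OE-N6, and none reached 1.5-fold.

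Glycosyltransferases, which add sugars to hormones, coumarins, monolignols or flavonols, were also listed. Whether the beta-glucosidases named here open their products was not tested. Of 14 listed genes 12 had a listed probe set of their own and 8 passed the filter, 3 above 0 and 5 below. Their median log2 ratio was -0.11, and none was at 1.5-fold. Among all genes that passed, 46.8% were above 0 and 53.2% below, with a median of -0.02. At 1.5-fold, 2.44% of all these genes were higher and 2.41% lower. The highest were UGT76C2 (0.40), a cytokinin glucosyltransferase, and UGT72B1 (0.14). The lowest were UGT76C1 (-0.52), also a cytokinin glucosyltransferase, and UGT72E2 (-0.30), which makes monolignol glucosides.

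The beta-glucosidases of lignin precursors were dim. BGLU46 (AT1G61820), which frees monolignols from their glucosides, had a wild-type signal of 165 and an OE-N6 signal of 230. This 1.39-fold difference, a log2 ratio of 0.48, was the highest among BGLU genes that passed the filter, and the mean signal of 197 was only just above it. With a pseudocount in place of the floor BGLU46 was at 0.30 and BGLU16, at 0.36, was the highest. BGLU45 (AT1G61810), a closely related enzyme with the same kind of substrate, had 54.3 and 110, so that even the OE-N6 value stayed below the floor and no ratio is given. BGLU47 (AT4G21760), of the same branch, had 61.4 and 52.7, under the floor on both arrays.

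Of the remaining BGLU genes above the floor, BGLU44 (AT3G18080), an enzyme known to act on beta-mannosides, was lower in OE-N6. It read 6338 on the wild-type array and 4856 on the OE-N6 array, 1.31-fold lower. BGLU25 (AT3G03640) had 600 and 578, a log2 ratio of -0.05, and BGLU40 (AT1G26560) had 240 and 277, a log2 ratio of 0.20. BGLU25 and BGLU40 were closer to equal on the arrays than BGLU44.

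The other dim BGLU genes are named without a ratio. They are BGLU19, BGLU20, BGLU24, BGLU27, BGLU29, BGLU31, BGLU32, BGLU36, BGLU41 and BGLU43. BGLU20, also called ATA27 and known from anthers, read 17.6 on the wild-type array and 11.0 on the OE-N6 array, and BGLU36, of the myrosinase branch, 11.4 and 33.7. Over all 12 BGLU genes under the floor the signals ran from 2.13 to 110, and 6 were higher and 6 lower in OE-N6 before the floor was applied. Both directions were thus equally frequent where the signal was too low to read.

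The largest log2 ratio among the 16 genes above the floor was in an endoglucanase of class C. GH9C1 (AT1G48930), a secreted endoglucanase with a carbohydrate-binding module that is known from root hairs and the seed's endosperm, had a wild-type signal of 162 and an OE-N6 signal of 268. This is 1.66-fold higher, a log2 ratio of 0.73, and rank 72 from the top among 5862 genes that passed the filter. With those genes split by mean signal into 10 groups, GH9C1 lies in the dimmest, where 3.58% of 587 genes were at least 1.5-fold higher. Of 12 listed root markers 2 had a probe set of their own in the annotation used here, EXPA7 and EXPA18, both expansins of root hairs. Both were higher in OE-N6, at 155 and 196 for EXPA7 and 188 and 290 for EXPA18. Both were dim, and only EXPA18 passed the filter, since EXPA7 had a mean signal of 175. Their summed signal was 343 on the wild-type array and 485 on the OE-N6 array, and their part in the GH9C1 value was not tested. The 5 green shoot markers went both ways, 3 with a log2 ratio above 0 and 2 below, beside 46.8% and 53.2% of all genes that passed. Highest were PSAN (0.16) and PRK (0.04), and lowest LHCB4.2 (-0.18) and SBPASE (-0.01). The summed signal of these 5 markers was 56158 on the wild-type array and 57366 on the OE-N6 array.

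The other class C genes had ratios nearer to 0 or no ratio. GH9C2 (AT1G64390) had a wild-type signal of 1250 and an OE-N6 signal of 1368, a log2 ratio of 0.13. GH9C3 (AT4G11050) had 18.0 and 35.4, under the floor on both arrays.

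Of the secreted class B enzymes, 3 of 10 passed the filter, 2 with a log2 ratio above 0 and 1 below. Of all genes 43.9% passed, and of those 46.8% were above 0 and 53.2% below. GH9B7 (AT1G75680) had a wild-type signal of 1297 and an OE-N6 signal of 1488, 1.15-fold higher. GH9B8 (AT2G32990) had 275 and 336, 1.22-fold higher. GH9B13 (AT4G02290) had 1176 and 1118, a log2 ratio of -0.07. All 3 ratios were under 1.5-fold, a threshold that 2.44% of all genes that passed reached upward and 2.41% downward.

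GH9B18 (AT4G39010) had 126 on the wild-type array and 82.8 on the OE-N6 array, the latter under the floor, so it was at least 1.13-fold lower. The other 6 class B genes, GH9B5, GH9B6, GH9B11, GH9B12, GH9B16 and GH9B17, were under the floor on both arrays. The probe sets shared by GH9B9 with GH9B10 and by GH9B14 with GH9B15 were also under it, with signals from 14.7 to 21.0. GH9B16 had 1.67 in OE-N6 beside 40.9 in the wild type, and neither can be read as a level.

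Neither class A endoglucanase with a probe set of its own was above the floor. GH9A3 (AT4G24260), also called KOR3 and a relative of the endoglucanase KORRIGAN, had signals of 58.6 and 53.6, and GH9A4 (AT3G43860) had 29.5 and 30.8. Of 14 listed cellulose synthesis genes only COB, needed for oriented deposition of cellulose, had a probe set of its own in the annotation used here. It had signals of 2416 and 2541, a log2 ratio of 0.07.

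Set side by side, the families had about the same median ratio at the filter used here. Over the 9 BGLU genes that passed the filter the median log2 ratio of OE-N6 over wild type was 0.20, from -0.43 to 0.48, with 6 above 0 and 3 below. Over the 5 GH9 genes it was 0.20 as well, from -0.07 to 0.73, with 4 above 0 and 1 below. The highest of each family, BGLU46 and GH9C1, had wild-type signals under the filter (165 and 162) and passed through the OE-N6 array. BGLU28, above the filter only in the wild type (223, with 153 in OE-N6), did not pass. The counts above 0 therefore include members let in by their higher array. The difference of the medians was 0.01. Over all 5862 genes that passed, the median was -0.02 and the SD across genes was 0.31, a spread over genes that is no error; 46.8% had a ratio above 0 and 53.2% below. Whether either family differs from other genes could not be tested.

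How close the families are depends on the summary and on the members counted. As means the log2 ratios were 0.08 for BGLU and 0.25 for GH9, a difference of -0.17. With the filter 5% lower, a setting added after seeing the data because BGLU28 lies just under the filter, the BGLU median was 0.13 and the difference of the medians -0.07. With a filter at the 75th percentile 4 BGLU genes were left, with a median of -0.002, and the GH9 median was 0.13, a difference of -0.13. Without GH9C1 the GH9 median was 0.16.

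At 1.5-fold, 1 of the 14 members that passed the filter was higher, GH9C1, and 0 were lower. Over all genes that passed, 2.44% were higher by this threshold and 2.41% lower. A count of 1 among 14 is the smallest above 0 and is not read as a difference of the families from other genes. The GH9C1 count ended with a pseudocount in place of the floor, where its log2 ratio was 0.47. At 2-fold no member was counted in either direction, beside 0.546% of genes higher and 0.495% lower.

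**Figure D2:**
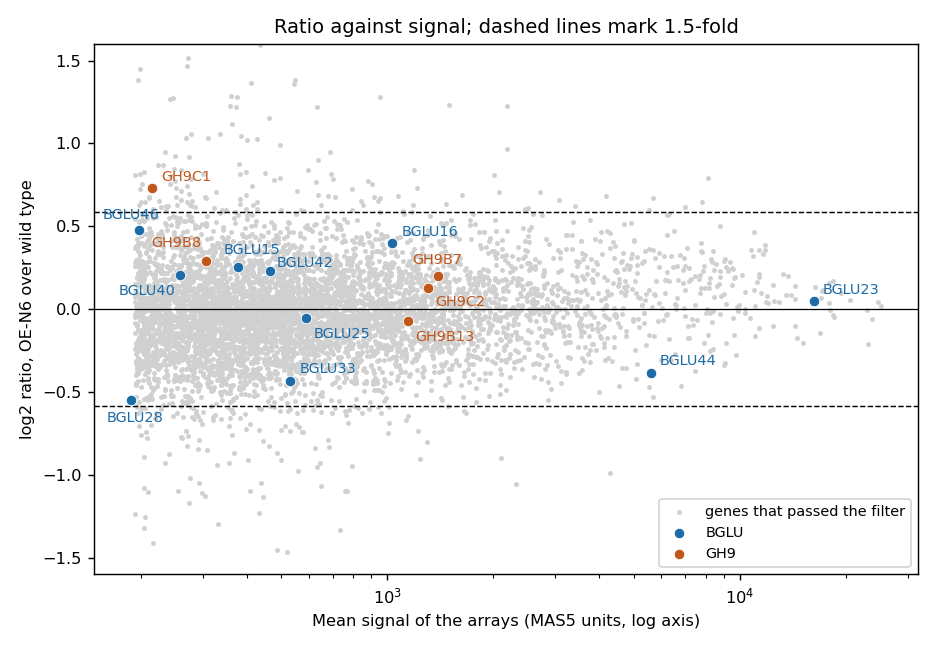
Log2 ratio of OE-N6 over wild type against the mean signal of the arrays (MAS5 units, log axis) for the 10 BGLU genes (blue) and 5 GH9 genes (orange) above the floor on both arrays, with genes that passed the filter in grey, apart from 10 that lie beyond the axis. Only GH9C1 lies outside the dashed lines at 1.5-fold, and BGLU28, just under the filter, lies closest to the lower line.

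Many members lie beside each other in the genome, and some neighbours differed in whether they could be read. With at most 1 other protein-coding gene between them, 31 of the 71 genes form 12 groups, and in 7 of these groups at least 2 genes have a probe set of their own, 16 genes in all. In 5 of the 7 a gene above the floor on at least 1 array lies in a group with genes below it on both, and in 2 all are below. Over all 37 members 21 (56.8%) were below it on both, so mixed groups are not read as a trait of neighbours. On chromosome 3, BGLU44 (6338 in the wild type) lies beside BGLU43 (23.7), and BGLU16 (891) beside BGLU27 (29.2). On chromosome 2, BGLU15, BGLU28 and BGLU29 follow each other with wild-type signals of 344, 223 and 5.62 and OE-N6 signals of 410, 153 and 25.3.

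In that last group BGLU15 was higher and its neighbour BGLU28 lower in OE-N6, so these adjacent genes did not share a direction. On chromosome 1 the raw signals of BGLU45 and BGLU46 were both higher in OE-N6, though BGLU45 stayed under the floor. On chromosome 4, GH9B16, GH9B17 and GH9B18 all had lower raw signals in OE-N6, but only GH9B18 reached the floor, at 126 in the wild type. On chromosome 2, GH9B11 read 3.99 and 6.76 and GH9B12 54.7 and 35.4, opposite directions under the floor throughout. A direction between signals under the floor cannot be read. On chromosome 5, BGLU31 and BGLU32 read 35.6 and 21.1 in the wild type and 24.8 and 2.64 in OE-N6, under the floor throughout. Related neighbours can share probe sequence, and how far their probe sets cross-hybridise was not tested.

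**Figure D3:**
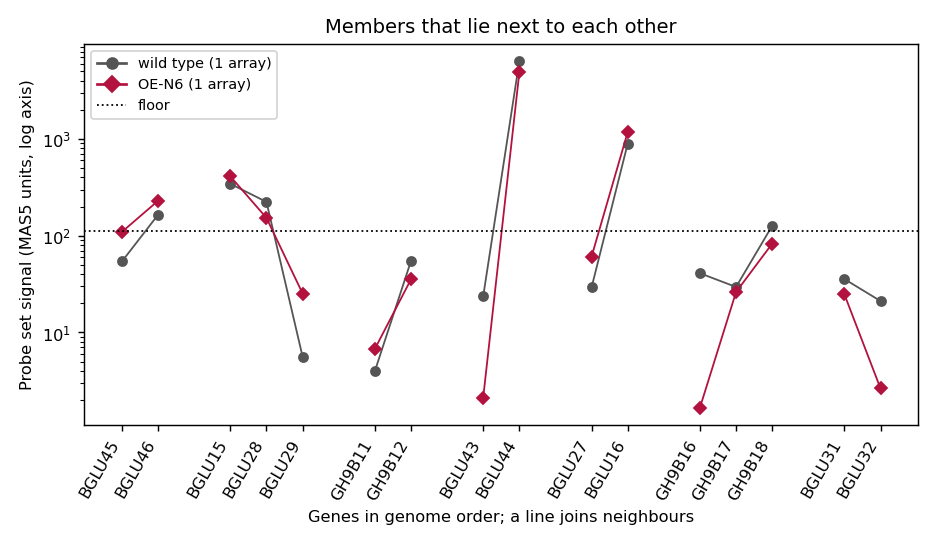
Probe set signal (MAS5 units, log axis) of the 16 members in groups of neighbours that hold at least 2 genes with a probe set of their own, in genome order, on the wild-type array (grey circles) and the OE-N6 array (red diamonds); lines join genes of a group and the dotted line is the floor of 111. BGLU44 and BGLU16 lie above the floor on both arrays, and the neighbour each is joined to lies below it.

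**Figure D4:**
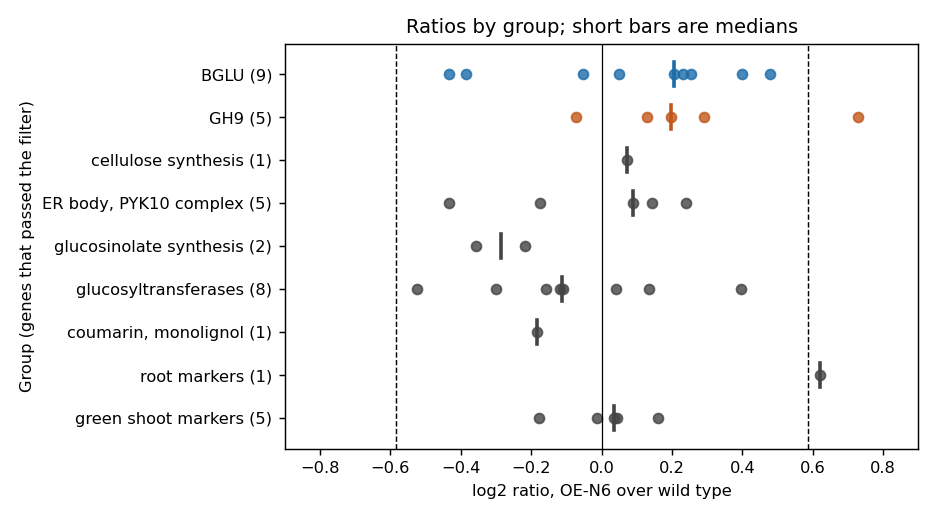
Log2 ratio of OE-N6 over wild type for each gene that passed the signal filter, by family or list, with the number of genes in brackets, short bars for medians and dashed lines at 1.5-fold. The BGLU and GH9 medians both lie at 0.20, and only GH9C1 and the root marker EXPA18 lie beyond 1.5-fold.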

How the data were processed

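Total RNA from whole seedlings (6 µg per array) carried a biotin label on ATH1 arrays, according to the labels' protocols. The authors deposited linear signal intensity, computed with MAS5 per the submitters' processing notes, which state no version or settings. The intensity has the same mean on both arrays (500) without the highest and lowest 2% of 22810 probe sets, so a change shared by most transcripts would be hidden.

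Gene names come from the platform annotation and, for 13436 of 13513 with 1 gene, the RefSeq table of TAIR10.1, used for names and neighbours only. The 503 probe sets with several genes and 8730 not listed were left out, apart from 3 shared by members. Whether genes without a listed probe set are on the array was not determined. Each gene was read by its brightest probe set; every member has 1. A ratio is log2 of OE-N6 over wild type after signals under the floor (40th percentile, 111) were raised to it. Genes under the floor on 1 array get a bound, on both no ratio. All members above the floor are named, and of each list the 2 highest and 2 lowest. Of the listed context genes, those whose symbol did not match the table were left out. Members and lists were chosen with earlier results of these data known. No sequence is shown. The ratio step was tested on simulated data. Calculations used Python 3.11.15, numpy 2.4.6, pandas 2.3.3, statsmodels 0.14.6 and matplotlib 3.10.9. Precision is limited by the single array per genotype. Alternatives covered scaling, filter, floor, a pseudocount and the choice of members.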

Additional observations from a re-analysis of the deposited data

How the results depend on the processing

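The scaling, filter, floor, pseudocount and probe-set alternatives gave 137 values of 16 members. Of these, 133 moved by less than 0.19, the median disagreement between probe sets of 1 gene, and 1 changed sign, PYK10 under loess scaling. That disagreement reached 0.73 among the 41 genes, and it is no error for these values. Many of them could not move, since a filter leaves a member's ratio as it is and every member has 1 probe set. A lower floor, or none, could alter only GH9B18 among them, so this count is no measure of stability. GH9B18 had a log2 ratio of -0.61 without a floor and with a floor at the 25th percentile. With a pseudocount in place of the floor GH9C1 had 0.47 and BGLU28 -0.34, since a pseudocount shrinks ratios of dim genes. The difference between the family medians, BGLU minus GH9, stayed between -0.13 and 0.04, and that between their means was -0.17. Without the filter both medians were 0, because the 21 members below the floor throughout count as 0, and at the 75th percentile filter the BGLU median was -0.00219. Members at least 1.5-fold higher numbered 0 at the 75th percentile filter, with the pseudocount and at 2-fold. All genes at least 1.5-fold higher and lower numbered 49 and 38 at that filter, 72 and 63 with the pseudocount, and 32 and 29 at 2-fold. The median signals of BGLU and GH9 were 82.0 and 33.2 with shared probe sets added, 57.9 and 54.7 on the wild-type array alone, 85.2 and 35.4 on the OE-N6 array alone, 530.4 and 1147 over members that passed the filter, and 3315 and 1309 at the 75th percentile filter, so which family has the higher median signal depends on the members counted. No paired analysis was possible because there is a single array of each genotype. Low signal limits the data: 21 of the 37 members have no ratio.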
